A study of Mus musculus with 2 samples.

Results

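The genes described here encode the enzymes that make, use and interconvert glutamate and 2-oxoglutarate in cultured mouse cardiac myofibroblasts. They were chosen by name, as the 9 rows of the gene count table, out of 24532, whose symbols are Glul, Glud1, Got1, Got2, Gpt2, Idh1, Idh2, Ogdh and Dlst. Each symbol had 1 row. RNA was sequenced in 2 libraries of myofibroblasts from C57BL/6 hearts, taken 3 days after infarction. The siControl cells received 12.5 nM of a control siRNA, the siBcat1 cells received 12.5 nM of an siRNA against Bcat1, and both were cultured for 72 hours. Both groups share the infarct origin, the strain and the transfection, and each siRNA was a single catalogue reagent. The number, age and sex of the animals are not stated in the labels, and untransfected cells were not analysed here. Each group has 1 library, so no difference could be tested or checked against replicates.

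Glutamate and 2-oxoglutarate are the amino donor and the amino acceptor of most aminotransferases, so the pair links amino acid metabolism to the citric acid cycle. Glutamine enters cells through transporters and gives rise to glutamate, and glutamine synthetase makes glutamine from glutamate. Glutamate becomes 2-oxoglutarate through glutamate dehydrogenase or through aminotransferases, and isocitrate dehydrogenases supply 2-oxoglutarate from citrate. The 2-oxoglutarate dehydrogenase complex then oxidises it to succinyl-CoA. Bcat1 encodes the cytosolic branched-chain aminotransferase, one of the enzymes that turn 2-oxoglutarate into glutamate. Glutamate is also the precursor from which proline, abundant in collagen, is made.

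The siControl library held 127309329 counts and the siBcat1 library 104581819. Counts per 1000000 (CPM) are relative to library sizes scaled by trimmed mean of M values factors, so that 1 CPM stands for 131 counts of the siControl library and 101 of the siBcat1 library. Bcat1 had 8891 and 99 counts, a log2 fold of -6.11 with a 95% interval of -6.41 to -5.83. All folds are siBcat1 over siControl, and intervals cover counting error only, with reads taken as independent. Genes whose mean over the libraries reached 5 CPM were kept. Across the 9887 of them with a known transcript length, log2 fold and length had a Spearman correlation of -0.651. This correlation is across genes of the same 2 libraries, so it is a description and carries no p-value. The 9 genes, and the named neighbouring genes that reached the minimum, are therefore also given length-adjusted. For this the smoothed trend of fold on length was subtracted. Marker levels are not adjusted. Markers of cardiac fibroblasts, 10 of 10 above the minimum, summed to 30381 CPM in siControl and 19588 CPM in siBcat1. The lower sum lay in Col1a1 and Col1a2 (20593 and 8264 CPM together), while the other 8 summed to 9788 and 11324 CPM. Of the 10, Col1a1, Col1a2 and Postn were at least 1.5-fold lower and Thy1 was at least 1.5-fold higher. Of 10 macrophage markers, 5 had counts in each library, with summed levels of 10.3 and 28.8 CPM, and Ptprc, Adgre1, Fcgr1 and C1qa were at 0 in both. Lyz2 held the largest part of these sums, with 5.46 and 21.3 CPM. Cd68 (0.502 and 1.53 CPM) and Cd14 (1.54 and 3.22 CPM) were also higher, and Csf1r (2.82 and 2.69 CPM) was near equal. Of 9 cardiomyocyte markers, 3 had counts in each library, with sums of 46.4 and 10.5 CPM that came almost wholly from Tnnt2, and Myh6, Myl7, Nppa, Ryr2 and Pln were at 0 in both. Summed levels of the other lists were 48.7 and 51.2 CPM for 7 endothelial markers, 122 and 83.5 CPM for 6 of smooth muscle and pericytes, and 23.5 and 14.2 CPM for 4 of the epicardium. Among the last, Upk3b had 17.7 and 3.998 CPM and Krt19 had 1.42 and 7.56 CPM, so the members did not share a direction. Tek (33.9 and 32.0 CPM) held most of the endothelial sums, and Smtn (113 and 78.2 CPM) most of those of smooth muscle and pericytes. Of the endothelial markers, Emcn was higher (2.95 and 6.92 CPM) and Cdh5 lower (4.81 and 3.01 CPM). In bulk RNA, fewer cells of a type and less RNA per cell cannot be told apart, and the part of other cell types in the values below was not tested.

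The 9 genes did not move together. Idh1, the cytosolic isocitrate dehydrogenase gene, was higher with siBcat1, while Gpt2, Ogdh and Idh2, which encode mitochondrial enzymes, were lower, Idh2 by less than the 1.5-fold used as a rule of size. Glul, Glud1, Got1, Got2 and Dlst lay nearer to equal levels, Got1 being the farthest with a 1.23-fold higher level. All 9 passed the minimum of 5 CPM. By that rule, 1 of 9 (11.1%) was higher, against 17.6% of the 9935 genes kept. In the other direction 2 of 9 (22.2%) were lower, against 25.6%. Both shares are near or below the background, so the counts say nothing particular about these genes as a set. At 2-fold, Idh1 was the 1 gene higher (background 5.58%) and Gpt2 the 1 gene lower (background 13%). Idh1 lies at that limit, since its interval of 0.98 to 1.03 spans a log2 fold of 1, and it was below 2-fold with library totals (0.91), on the TPM scales and under each length correction. With the length trend removed, Idh1 was 1.5-fold higher (background 12.8%) and Gpt2 and Idh2 were lower (background 14.3%). The same 3 genes were past 1.5-fold with the GC trend removed too, where the background was 11.6% higher and 13.6% lower. Upper-quartile factors gave Idh1 as higher and Gpt2 and Ogdh as lower, against 23.4% and 20.7%. The median log2 fold of the 9 was -0.05, and that of all kept genes was -0.06. What differed was the position of single genes, from -1.37 in Gpt2 to 1.01 in Idh1.

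**Figure D1:**
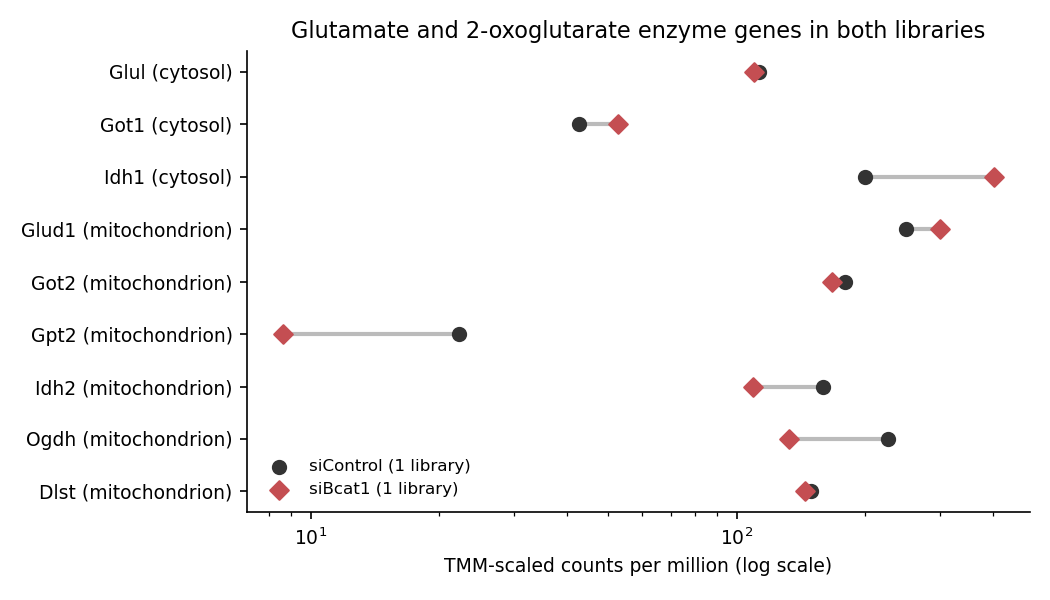
Scaled CPM (log axis) of the 9 genes in the siControl library (circles) and the siBcat1 library (diamonds), with a line joining the values of each gene and the enzyme's compartment beside its name. Idh1 sits at 200.4 and 402 CPM and Gpt2 at 22.3 and 8.60 CPM, and for Glul, Got2 and Dlst the symbols nearly coincide.

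Levels between genes were compared in the deposited transcripts per 1000000 (TPM), which account for transcript length. In siControl the order ran from Idh2 (194 TPM) over Idh1 (184), Glud1 (164), Got2 (159), Dlst (112), Glul (83.2), Ogdh (71.0) and Got1 (42.9) to Gpt2 (12.9 TPM). In siBcat1 it ran from Idh1 (259.6 TPM) over Glud1 (139), Got2 (105), Idh2 (93.9), Dlst (76.4), Glul (57.0), Got1 (37.3) and Ogdh (29.4) to Gpt2 (3.49 TPM). Idh2 moved from the first place to place 4, and Gpt2 was last in both. Without replicates, no statement can be made on which neighbours in either order differ beyond their spread. The log2 ratio of TPM lay below the log2 fold of counts by a nearly constant amount, a shift of -0.51 at the median of all kept genes. All 9 genes fell within 0.0011 of that shift, so the TPM values hold the same differences between these genes on another scale. On the log2(TPM + 1) scale Idh1 was the single gene above 0, with 0.50. On that scale none of the 9 genes was 1.5-fold higher and 4 were 1.5-fold lower, namely Got2, Gpt2, Idh2 and Ogdh, against 3.56% and 46.5% of all kept genes.

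**Figure D2:**
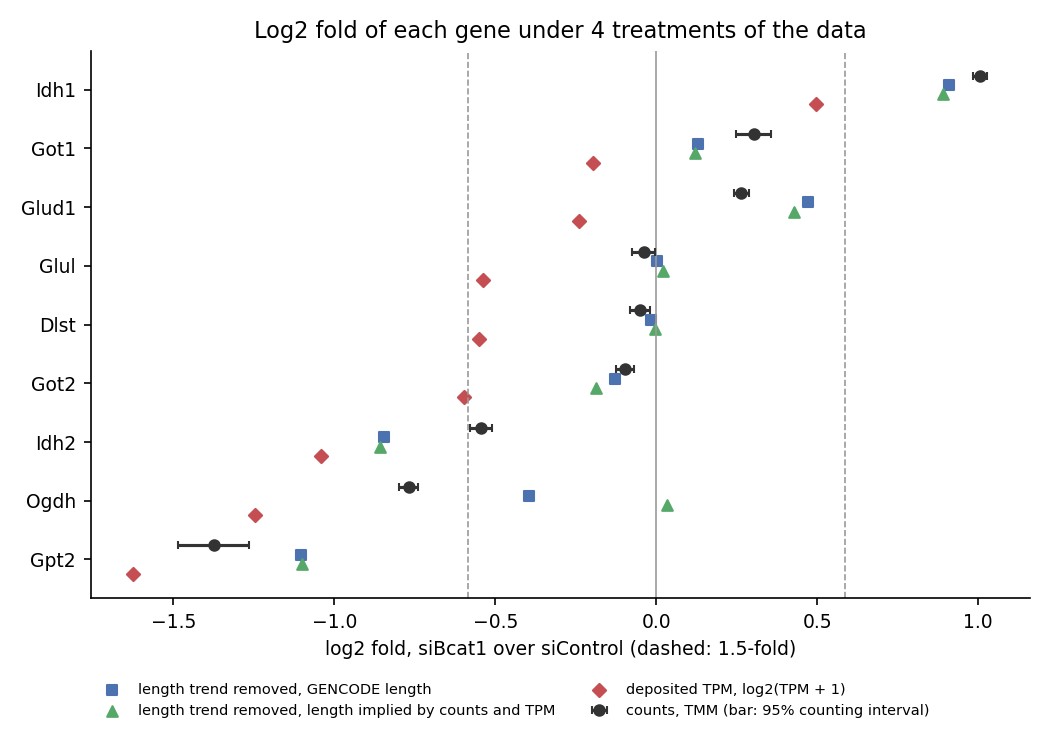
Log2 fold of each gene (horizontal axis, siBcat1 over siControl) from scaled counts with the 95% counting interval (circles), with the length trend removed using annotated length (squares) or length implied by the ratio of counts to TPM (triangles), and from TPM (diamonds). Idh1 and Gpt2 keep their side of 0 in all 4, TPM values lie to the left of the counts for every gene, and the Ogdh symbols spread from -1.25 to 0.03.

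Genes of like length gave a background for each gene. Glul, Dlst, Got2, Got1 and Ogdh lay between the quartiles of their length groups. Ogdh had -0.77 where the quartiles were -0.83 and -0.07, and 28.9% of its length group had a lower log2 fold. Glul (2792 bases) and Dlst (2764 bases) belong to the same of 10 equal groups of genes by length, whose median log2 fold was -0.02, and the genes themselves had -0.04 and -0.05. Got1 (2058 bases) had 0.30 in a length group with a median of 0.24. Idh2 is the shortest, with 1745 bases, in the length group of Got1, and 92.6% of the genes there had a higher log2 fold than its -0.54. Idh1 (2292.5 bases as the median of its matched transcripts) lay above 95.7% of its length group, and Gpt2 (3639 bases) below 94.5% of its own. Glud1 (3390 bases), with 0.26 where the median was -0.14, lay above 80.5% of its length group.

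**Figure D3:**
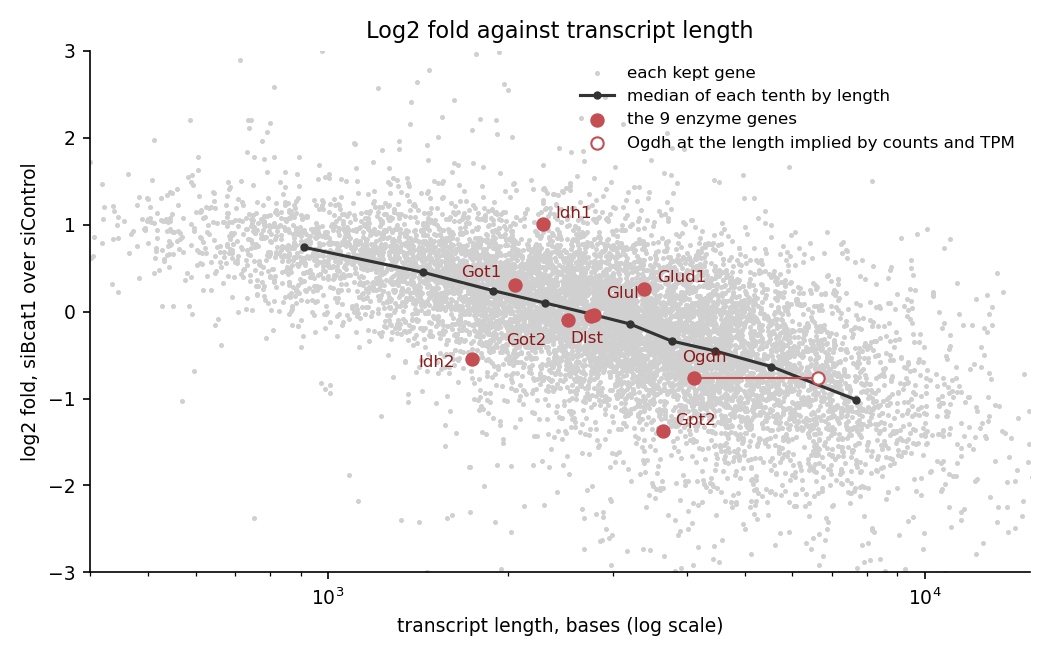
Log2 fold (vertical axis) against transcript length in bases (log axis) for 9887 kept genes (grey), of which 97 lie outside the frame, with the median of each of 10 length groups (black) and the 9 enzyme genes (red). Idh1 and Glud1 stand above the black line, Idh2 and Gpt2 below it, and the open circle places Ogdh at its implied length, next to the line.

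Glul encodes glutamine synthetase, which joins ammonia to glutamate to make glutamine. The gene (gene ID 14645) lies on chromosome 1 from 153899944 to 153909723 on the plus strand (GRCm38), and its matched transcript has 7 exons. Glul had 14800 counts in siControl and 11100 in siBcat1, or 113 and 109.6 CPM. The log2 fold was -0.04 with an interval of -0.08 to -0.00, and the length-adjusted value was 0.00. Its sign turned with the scaling, with 0.09 under upper-quartile factors and -0.54 with log2(TPM + 1). The microRNA gene Mir8114 lies within Glul exons on the same strand and is counted in a row of its own, with 444 and 95 counts, so reads could have been split between the rows.

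Glud1 encodes glutamate dehydrogenase, the mitochondrial enzyme that releases ammonia from glutamate to give 2-oxoglutarate. The gene (gene ID 14661) spans 34310727 to 34345265 on the plus strand of chromosome 14, and its transcript has 13 exons. Counts were 32798 and 30372, which gave 249.5 and 299.8 CPM. The log2 fold was 0.26 (interval 0.24 to 0.29), and it was 0.47 length-adjusted, 0.46 with the trend on GC content removed as well, and -0.24 with log2(TPM + 1). Glud1 was thus above its length neighbours but below 1.5-fold in every setting tried.

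Got1 and Got2 encode the cytosolic and mitochondrial aspartate aminotransferases, which exchange the amino group between glutamate and oxaloacetate and carry the malate-aspartate shuttle. Got1 (gene ID 14718, chromosome 19, 43499752 to 43524605, minus strand, 9 exons) had 5596 and 5323 counts, or 42.6 and 52.5 CPM. Its log2 fold was 0.30 (interval 0.25 to 0.36) and 0.13 length-adjusted. Got2 (gene ID 14719, chromosome 8, 95864134 to 95888547, minus strand, 10 exons) had 23591 and 17003 counts, or 179 and 168 CPM. Its log2 fold was -0.10 (interval -0.13 to -0.07) and -0.13 length-adjusted, with 0.03 under upper-quartile factors and 0.00 after removal of length and GC trends. Got2 exons overlap the unclassified gene Gm45760 on the opposite strand, and the annotation also holds a processed copy named Got2-ps1. Reads of these could not be told from those of Got2 if strand was not used in counting or reads were placed in more than 1 copy, so the Got2 value is uncertain to that extent. Got1 was thus slightly higher and Got2 near equal in scaled counts, and neither direction held with every scaling, since Got1 had -0.20 with log2(TPM + 1). A ratio within a library is free of the scaling between libraries. The ratio of Got1 to Got2 in TPM was 0.270 in siControl and 0.357 in siBcat1. In counts, the log2 change of the ratio was 0.40 (95% interval 0.34 to 0.46), and 0.26 when taken from length-adjusted folds. Got2 transcripts were the more abundant in both libraries.

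The promoter of Got1 is shown because it was the one member promoter in which the C/EBP-ATF response element, the sequence through which ATF4 acts on amino acid genes, was found. The window runs from 250 bases before to 50 bases after the RefSeq start (chr19:43524556-43524855, minus strand, GRCm38.p6). In all promoters printed here, capitals mark the response element (TGATGNAAN), the CCAAT box (CCAAT) and the GC box (GGGCGG) on either strand.
Got1: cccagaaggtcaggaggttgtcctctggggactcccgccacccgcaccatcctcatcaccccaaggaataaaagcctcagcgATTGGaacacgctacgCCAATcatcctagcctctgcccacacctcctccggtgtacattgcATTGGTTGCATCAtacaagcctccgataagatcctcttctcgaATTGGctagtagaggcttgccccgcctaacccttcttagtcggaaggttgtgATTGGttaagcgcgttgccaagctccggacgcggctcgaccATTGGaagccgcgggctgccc
The response element occupies bases 148 to 156 of the window on the opposite strand, and shares base 148 with a CCAAT box at bases 144 to 148. Of 32851 promoter windows of the same length in the RefSeq table, 3.95% hold this element. In the window there were 6 CCAAT boxes in all. A match of letters is a description of the sequence and not of binding.

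Gpt2 encodes the mitochondrial alanine aminotransferase, which passes the amino group of glutamate to pyruvate to make alanine and 2-oxoglutarate. The gene (gene ID 108682, chromosome 8, 85492576 to 85527560, plus strand, 12 exons) was the least abundant of the 9 and had the lowest fold. Counts were 2929 in siControl and 871 in siBcat1, or 22.3 and 8.60 CPM, a level 2.59-fold lower with siBcat1. The log2 fold was -1.37 (interval -1.48 to -1.26), and 6.51% of the kept genes had a lower one. It stayed beyond 1.5-fold lower in all 10 alternatives that kept the gene, from -1.85 with log2(TPM + 0.1) to -1.04 with length and GC trends removed. A changed minimum leaves a gene's own fold almost as it was. Tallies of alternatives, here and for the genes below, therefore include near repeats of the main value. The length-adjusted value was -1.10. Gpt, which encodes the cytosolic enzyme for the same reaction, had 181 and 206 counts, below the minimum, and a log2 fold of 0.56 (interval 0.27 to 0.86).

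The Gpt2 promoter is shown as that of the gene with the largest difference (chr8:85492326-85492625, plus strand, GRCm38.p6).
Gpt2: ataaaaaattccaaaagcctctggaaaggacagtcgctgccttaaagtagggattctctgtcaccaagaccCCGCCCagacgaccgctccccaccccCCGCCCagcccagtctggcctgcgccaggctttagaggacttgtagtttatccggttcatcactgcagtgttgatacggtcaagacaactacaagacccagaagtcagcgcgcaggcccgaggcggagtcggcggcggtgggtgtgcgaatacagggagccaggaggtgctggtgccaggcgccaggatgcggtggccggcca
It holds 2 GC boxes, both on the opposite strand, and no match to the C/EBP-ATF element, the CCAAT box or the antioxidant response element core (TGACNNNGC). GC boxes were present in 35.7% of all windows. At least 1 window held one in 7 of the 9 genes, beside 38.2% of all 27025 genes. The 27025 genes were not limited to those above the minimum of 5 CPM, as the 9 genes were, and enrichment was not tested. The missing matches speak of these letters in this window alone.

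Idh1 and Idh2 encode the isocitrate dehydrogenases that use NADP, Idh1 in the cytosol and peroxisomes and Idh2 in mitochondria, and both interconvert isocitrate and 2-oxoglutarate. Of the 3 pairs compared as ratios here, this one had the largest change. Idh1 (gene ID 15926, chromosome 1, 65158616 to 65186500, minus strand, 9 exons) had 26338 counts in siControl and 40749 in siBcat1. These were 200.4 and 402 CPM, a log2 fold of 1.01 (interval 0.98 to 1.03), and 5.48% of the kept genes had a higher one. Idh1 was at least 1.5-fold higher in 9 of 11 alternatives and above 0 in the other two, which used TPM, with 0.50 for each pseudocount. It was 0.91 length-adjusted and 0.72 with length and GC trends removed.

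Idh2 (gene ID 269951, chromosome 7, 80094846 to 80115392, minus strand, 11 exons) had 20948 and 11076 counts, or 159 and 109.3 CPM. The log2 fold was -0.54 (interval -0.58 to -0.51), just short of the 1.5-fold rule. As a short transcript among genes that were mostly higher, it had a length-adjusted value of -0.85, and -0.86 when implied lengths were used. Idh2 was below 0 in all 11 alternatives and 1.5-fold lower in 6 of them.

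In siControl the pair was nearly balanced, with Idh1 at 48.6% of the summed TPM of both genes, and in siBcat1 Idh1 made up 73.4%. The sum itself was 378 TPM in siControl and 354 TPM in siBcat1, on a scale shifted by -0.51 at the median of all kept genes. In scaled counts, Idh1 and Idh2 had 200.4 and 159 CPM in siControl and 402 and 109.3 CPM in siBcat1. Their sum was thus higher with siBcat1 in CPM and lower in TPM, so its direction depends on the scale. In counts, Idh1 took 55.7% (95% Wilson interval 55.3 to 56.1) of the reads of the pair in siControl and 78.6% (78.3 to 79.0) in siBcat1. The ratio of Idh1 to Idh2 was 2.93-fold higher with siBcat1, a log2 change of 1.55 (95% interval 1.51 to 1.59). That change was 1.75 from length-adjusted folds and 1.43 with length and GC trends removed, so it held its direction under each correction. How far such a ratio varies between cultures of 1 group is unknown here.

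**Figure D4:**
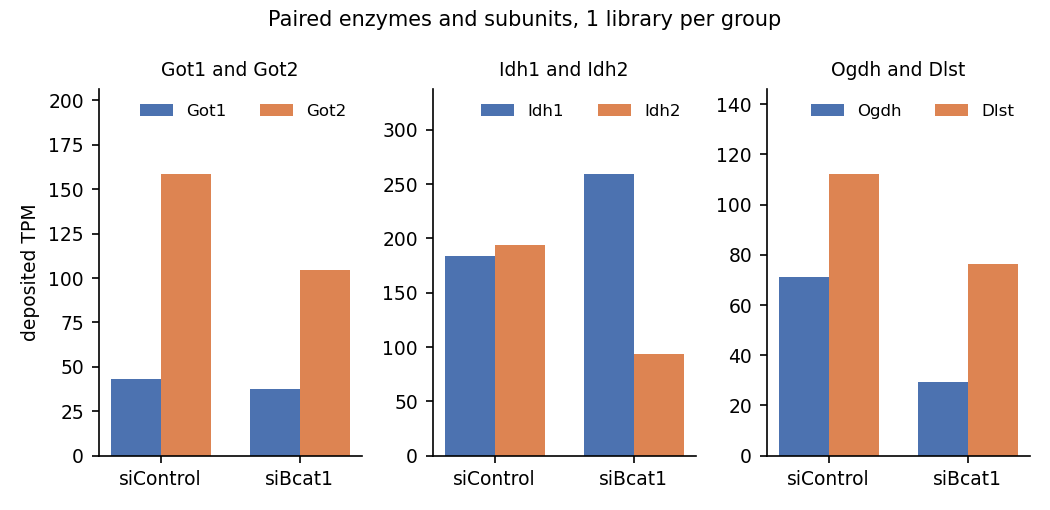
Deposited TPM (bars, from 0, 1 library each) of Got1 and Got2, of Idh1 and Idh2, and of Ogdh and Dlst in siControl and siBcat1, with no error bars because there are no replicates. Idh1 and Idh2 stand at 184 and 194 TPM in siControl and at 259.6 and 93.9 TPM in siBcat1, whereas Got2 stays above Got1 and Dlst above Ogdh in both.

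The promoters of this pair are shown side by side as those of the 2 genes that parted (Idh1 chr1:65186430-65186729 and Idh2 chr7:80115301-80115600, both minus strand, GRCm38.p6).
Idh1: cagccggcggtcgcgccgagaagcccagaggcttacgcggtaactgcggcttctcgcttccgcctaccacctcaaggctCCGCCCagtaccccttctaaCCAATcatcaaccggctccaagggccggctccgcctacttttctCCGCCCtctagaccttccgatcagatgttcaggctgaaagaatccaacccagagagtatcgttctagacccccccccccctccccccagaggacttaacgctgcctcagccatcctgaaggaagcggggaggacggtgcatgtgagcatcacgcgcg
Idh2: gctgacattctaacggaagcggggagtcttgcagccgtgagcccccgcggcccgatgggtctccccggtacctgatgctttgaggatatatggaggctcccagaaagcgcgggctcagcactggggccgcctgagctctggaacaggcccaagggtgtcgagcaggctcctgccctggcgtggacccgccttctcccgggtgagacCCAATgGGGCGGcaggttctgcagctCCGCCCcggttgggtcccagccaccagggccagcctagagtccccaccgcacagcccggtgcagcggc
Each holds 1 CCAAT box and 2 GC boxes. The Idh1 CCAAT box begins 151 bases before the annotated start, and that of Idh2 begins 44 bases before it. CCAAT boxes were present in 37.4% of all windows. Neither window holds the antioxidant response element core, to which NRF2 binds and which 12.4% of all windows hold, nor the C/EBP-ATF element. A second Idh1 start in the table (chr1:65179093-65179392) has 1 GC box and none of the other elements searched. Among the 9 genes the antioxidant core occurred once, in the Dlst window. The E-box (CACGTG, in 7.15% of windows) occurred in Ogdh windows alone, the TATA box (TATAAA, in 13.6%) in Got2 alone, and the site of nuclear respiratory factor 1 (in 4.60%) in none. Both strands were searched for every element. Windows were found for all 9 genes by symbol and gene identifier, 1 each except for 2 of Idh1 and 6 of Ogdh.

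Ogdh and Dlst encode 2 subunits of the 2-oxoglutarate dehydrogenase complex, the decarboxylating subunit and the succinyl-transferring core. Ogdh (gene ID 18293, chromosome 11, 6291633 to 6356642, plus strand) had 29774 counts in siControl and 13465 in siBcat1. These were 227 and 133 CPM, a log2 fold of -0.77 (interval -0.80 to -0.74), or 1.70-fold lower with siBcat1. Dlst (gene ID 78920, chromosome 12, 85110833 to 85134845, plus strand, 15 exons) had 19695 and 14659 counts, or 149.9 and 145 CPM. Its log2 fold was -0.05 (interval -0.08 to -0.02) and -0.02 length-adjusted, with 0.08 under upper-quartile factors. Ogdh was therefore lower in scaled counts and Dlst near equal.

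The Ogdh value rests on the transcript length assigned to it. Matched GENCODE transcripts have a median of 4114 bases, and with that length the adjusted value was -0.40. Counts and TPM together imply 6630 bases, 1.61 times as many, and the RefSeq gene model ends 2452 bases downstream of the GENCODE model. For the other 8 genes the implied length was between 0.929 and 1.01 times the annotated one. Gpt2 was among these with 0.990, although its RefSeq model also ends 1342 bases downstream of the GENCODE model. A later RefSeq end thus did not always go with a longer implied length. With implied lengths the Ogdh value was 0.03. Ogdh was 1.5-fold lower in 8 of 11 alternatives, and in none of the 3 that removed a length trend. The ratio of Ogdh to Dlst was 0.632 in TPM in siControl and 0.384 in siBcat1, a log2 change of -0.72 in counts (interval -0.76 to -0.68). This change was -0.38 from length-adjusted folds and 0.04 with implied lengths.

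The complex has other parts. Dld, the dihydrolipoamide dehydrogenase subunit that is shared with the pyruvate and branched-chain complexes, had 12456 and 13618 counts and a log2 fold of 0.50 (length-adjusted 0.48). Mrps36, which links subunits of the complex, had 0.25 before and -0.62 after length adjustment. Ogdhl, a paralog of Ogdh, had 547 and 1093 counts, or 4.16 and 10.8 CPM, a log2 fold of 1.37 (interval 1.22 to 1.53), and 1.60 length-adjusted. Subunit genes of the complex thus had values on both sides of 0.

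Grouped by compartment, the cytosolic genes Glul, Got1 and Idh1 had log2 folds from -0.04 to 1.01, and the 6 mitochondrial genes from -1.37 to 0.26. The ranges overlapped. The cytosolic genes made up 30.3% of the summed TPM of all 9 genes in siControl and 44.2% in siBcat1. Most of that difference lay in Idh1 alone, which made up 17.95% and 32.4%. Without Idh1, the cytosolic share of the other 8 genes was 15.03% and 17.4%.

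Neighbouring genes of the pathway were read from 8 lists, leaving out Bcat1 and genes below the minimum, some of which had counts. The remaining 63 genes are called measured here. By the 1.5-fold rule 5 of these (7.94%) were higher and 12 (19.0%) were lower, against the 17.6% and 25.6% of all kept genes given above. Their median was -0.07. Genes for the transport and first use of glutamine and glutamate, exchangers included, were all below 0. Of 9 measured, 5 were 1.5-fold lower and 4 lay between, with a median of -0.62. These transcripts are long, with a median of 4163 bases, and after length adjustment 2 of the 9 were 1.5-fold lower, beside 14.3% of all genes, and the median was -0.28. Slc38a1, a glutamine transporter, had -1.15 (length-adjusted -0.28). Slc7a5, which exchanges glutamine for leucine and other large neutral amino acids, had -0.94 (length-adjusted -0.70). Slc1a5, another glutamine carrier, had -0.69 (length-adjusted -0.65).

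**Figure D5:**
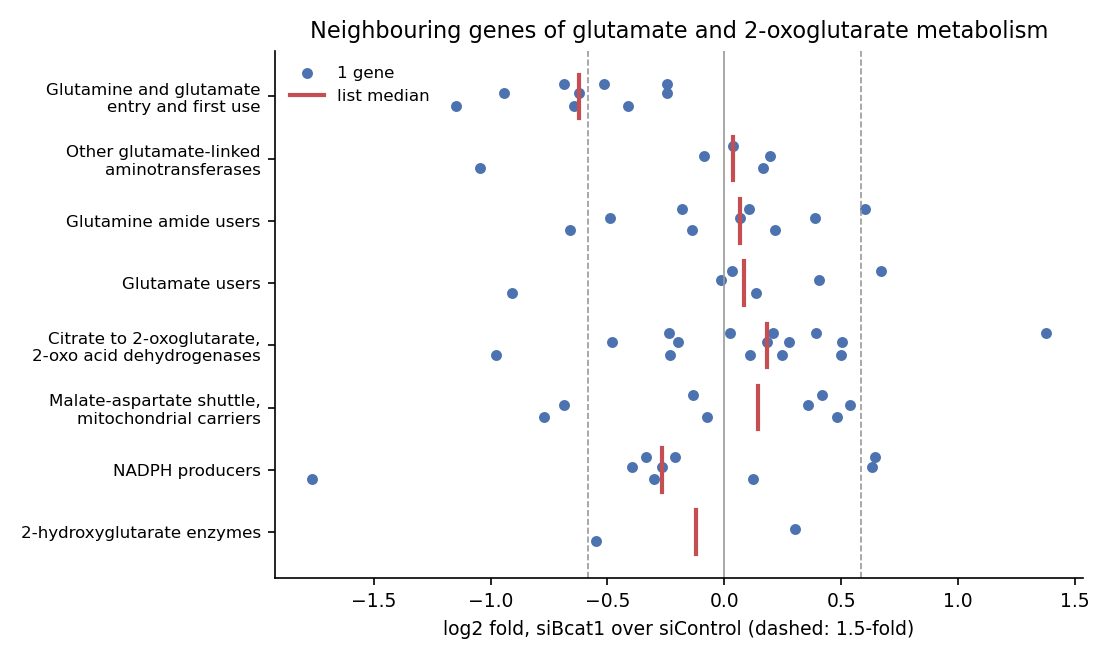
Log2 fold (horizontal axis, siBcat1 over siControl) of each measured gene (points) in 8 lists of neighbouring genes, with the list median (red bars) and 1.5-fold marked by dashed lines. All 9 genes of the list labelled entry and first use of glutamine and glutamate, which also holds exchangers, lie left of 0. The other lists hold genes on both sides.

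Of the other glutamate-linked aminotransferases, 5 were measured, 1 was 1.5-fold lower and none higher, beside 25.6% and 17.6% of all kept genes. The counts were the same with length adjustment, beside 14.3% and 12.8% of all genes. Abat, which breaks down GABA with 2-oxoglutarate as acceptor, had -1.04 (length-adjusted -0.80). Oat, the ornithine aminotransferase, had 0.19 (length-adjusted 0.05), and Bcat2, the mitochondrial partner of Bcat1, had 0.17 (length-adjusted -0.12). Of 9 measured users of the amide nitrogen of glutamine, 1 was higher and 1 lower, beside 17.6% and 25.6% of all kept genes. Ppat, of purine synthesis, had 0.60, Cad, of pyrimidine synthesis, had -0.66, and Gfpt1, of hexosamine synthesis, had -0.49. With length adjustment 3 of the 9 were 1.5-fold higher and none was lower, beside 12.8% and 14.3% of all genes. Ppat then had 0.95, and Cad and Gfpt1 turned to 0.15 and 0.28. Of 6 measured genes listed for glutamate use and linked steps, 1 was higher and 1 lower, beside 17.6% and 25.6% of all kept genes. With length adjustment 1 was higher, Gclm in place of Gss, and 1 lower, beside 12.8% and 14.3%. Aldh18a1, which starts proline synthesis, had -0.91 (length-adjusted -0.68). Gss and Gclm, of glutathione synthesis, had 0.67 and 0.40 (length-adjusted 0.41 and 1.06). With implied lengths Gss had 0.45 and Gclm 0.23, both under 1.5-fold, so the adjusted Gclm value rests on the length assigned to it.

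Genes between citrate and 2-oxoglutarate and of the other 2-oxo acid dehydrogenases were mostly near equal levels, with 13 of 15 within 1.5-fold. In this list 1 was higher (Ogdhl) and 1 lower, beside 17.6% and 25.6% of all kept genes. With length adjustment 1 was higher and 2 were lower, beside 12.8% and 14.3%. The NAD-linked isocitrate dehydrogenase has 3 subunits, and Idh3a had 0.50, Idh3b -0.20 and Idh3g 0.11. Length-adjusted, these were 0.44, -0.56 and -0.39. None of the 3 differed as much as Idh1.

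Of 8 measured genes of the malate-aspartate shuttle and of mitochondrial carriers, 2 were 1.5-fold lower and none higher, beside 25.6% and 17.6% of all kept genes. With length adjustment 2 were lower and 2 higher, beside 14.3% and 12.8%. Slc25a10, the dicarboxylate carrier, had -0.77 (length-adjusted -0.96), and Slc25a22, a glutamate carrier, had -0.68 (length-adjusted -0.67). With implied lengths Slc25a10 had -0.42 and Slc25a22 had -0.63. In the list 1 was then lower and 1 higher, with no share of all genes taken, so the adjusted counts rest on the lengths used. Mdh1, the cytosolic malate dehydrogenase, had 0.54 (length-adjusted 0.39). Of 9 measured producers of NADPH, 2 were higher and 1 lower, and with length adjustment 1 was higher and 1 lower, beside the same shares of all genes. Aldh1l2, of mitochondrial folate metabolism, had -1.76 (length-adjusted -1.03). Pgd, of the pentose phosphate pathway, had 0.64 (length-adjusted 0.53) and Aldh1l1, the cytosolic relative of Aldh1l2, had 0.63 (length-adjusted 0.75). Of the enzymes that remove 2-hydroxyglutarate, 2 were measured and both lay within 1.5-fold. D2hgdh, which oxidises the D form, had -0.55 (length-adjusted -0.35).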

How the data were processed

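RNA of 2 samples, 1 per group, was compared, with groups taken from the treatment label. The members and the gene lists were chosen with earlier results of these data known. The authors deposited whole-number gene counts that are not normalized. They also deposited TPM, which the file headers name and which are scaled by transcript length and library. Libraries were built with a stranded mRNA kit, per the labels' protocols. The submitters' processing notes list FastQC, Trimmomatic, HISAT2, StringTie and the build mm10. Their settings and versions, and the use of strand in counting, are not stated there. All per-sample columns were used.

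Scaling factors (TMM, edgeR 4.0.16 in R 4.3.3, 1.03 for siControl and 0.969 for siBcat1) were fitted on all 24532 genes. Intervals of folds are exact (Clopper-Pearson) at 95%, and those of ratio changes are normal approximations on the log scale from the 4 counts. They cover counting error only and are too narrow where PCR copies, or both mates of a pair, were counted. A mean of 5 CPM over both libraries was the minimum, which 9935 genes reached. No p-value is given, since each group has 1 library. The length trend was a lowess curve (fraction 0.3, 3 iterations, statsmodels 0.14.6) of log2 fold on log2 length of transcripts in GENCODE M21 (GRCm38), found through their RefSeq accessions. Implied length is the mean over both libraries of counts divided by TPM, scaled to the annotated length of genes with 1 matched transcript. For 77.6% of 6460 such genes it lay within 1.1-fold of the annotated length. Promoters and RefSeq gene ends are RefSeq's on GRCm38.p6.

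Named genes were the 9 members, Bcat1, in each list the 3 genes farthest from a log2 fold of 0, and Gpt, Dld, Idh3a, Idh3b and Idh3g. Some genes that this rule names are not reported here. Mrps36 was named after its value was seen. The alternatives tried were scaling by library totals, by upper-quartile factors or by DESeq2 1.42.0, TPM with a pseudocount of 1 or 0.1, a minimum of 1 or 20 CPM or none (with a prior count of 0.5), 2-fold, whole intervals, length corrections and list means. Ratio changes with implied lengths and with GC correction were added after seeing the data. The calculations were tested on counts simulated for this comparison with counting error alone, where 95.4% of intervals over 9946 genes held the true fold.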

Additional observations from a re-analysis of the deposited data

How the results depend on the processing

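No paired analysis was possible because each group has 1 library, and for the same reason no replicate could be left out. Idh1 was the 1 gene at least 1.5-fold higher under every setting but the TPM scales, where the count was 0 with either pseudocount. The count of 2 lower genes was 3 with library totals, 4 with TPM at either pseudocount, and 1 at a minimum of 20 CPM, where Gpt2 was not kept, and 1 at 2-fold. With a length trend removed it remained 2, but Idh2 then took the place of Ogdh. The members' median of -0.05 was -0.14 with library totals, 0.077 with upper-quartile factors, -0.55 and -0.56 with TPM (pseudocounts 1 and 0.1), -0.017 and 0.019 with the annotated and implied length trends removed, 0.016 with length and GC trends removed, and the mean was -0.14. Ogdh had the opposite sign with implied lengths (0.034), where the length assigned to it is 1.61 times the annotated one. The change of the Ogdh to Dlst ratio turned with it, from -0.72 to 0.039, and was -0.38 with annotated length and -0.35 with GC as well. The Got1 to Got2 change of 0.40 was 0.26, 0.31 and 0.22 under the annotated length, implied length, and length with GC corrections, and the Idh1 to Idh2 change of 1.55 was 1.75, 1.75 and 1.43. Bcat1 had -3.999 with log2(TPM + 1), and -5.53, -5.16 and -5.51 under the same 3 corrections. Among neighbouring genes, the 5 higher became 1 with library totals, 1 with either TPM scale, 9 with upper-quartile factors, 8 with annotated lengths, 1 at 2-fold and 3 by whole intervals. The 12 lower became 7 with upper-quartile factors, 30 and 31 with TPM, 5 with length and GC trends removed and 3 at 2-fold. Other causes of these differences were not tested. Upper-quartile factors shifted the median of all genes from -0.06 to 0.07 and log2(TPM + 1) to -0.52, so small folds have no firm direction. Depth was not the limit for the 9 genes, whose lowest count was 871, whereas the missing replicates were.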

Other observations

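Dhtkd1, singled out after its values were seen, had 158 counts in siControl and 5 in siBcat1, below the minimum, a log2 fold of -4.61 (interval -6.25 to -3.35). It encodes the decarboxylating subunit of the 2-oxoadipate dehydrogenase complex, which shares Dlst and Dld with the 2-oxoglutarate dehydrogenase complex. Aadat, Tat and Agxt2, which encode aminotransferases, had 0 counts in both libraries. A count of 0 allows up to 3 counts, or 0.0228 CPM in siControl and 0.0296 CPM in siBcat1. Gad1, which makes GABA from glutamate, and Slc25a18, a mitochondrial glutamate carrier, were also at 0 in both.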
